A study of Mus musculus with 12 samples.

Results

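Whether overexpression of miR-150 changes the circular and linear RNA of the isoproterenol-treated left ventricle was examined on 6 of the 12 arrays of the series, 3 from double transgenic mice (DTG ISO) and 3 from single transgenic mice (TG ISO), 1 array per mouse. Both groups carried the GRK-beta1AR transgene, a mutant β1-adrenergic receptor without the sites that G protein-coupled receptor kinases (GRKs) phosphorylate, expressed in cardiomyocytes. DTG mice carried in addition a miR-150 transgene driven by the CAG promoter, which is active in most cell types, so by design its expression was not limited to cardiomyocytes. No group lacked the receptor transgene. All mice were C57BL/6J, received isoproterenol (ISO), a β-adrenergic agonist, for 1 week, and each group held 1 female and 2 males. TG ISO mice were 9, 10 and 10 weeks old at harvest and DTG ISO mice were 10, 11 and 12 weeks old. The other 6 arrays came from 3 TG and 3 DTG mice of the same strain given vehicle (TG Veh, 9, 9 and 12 weeks old, and DTG Veh, all 10 weeks old), and they are used only where they bear on this comparison.

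A circular RNA (circRNA) forms when a splice donor is joined to an acceptor upstream of it, which closes 1 or more exons into a loop. Because such a loop has no free end, it resists RNase R, an exonuclease that was applied to the total RNA before labeling. MicroRNAs such as miR-150 pair with messenger RNAs, mainly through their seed bases, and lower their stability or translation. Some circRNAs carry such pairing sites themselves and can bind microRNAs. In the heart, the β1-adrenergic receptor signals through a G protein to raise contractility and, after phosphorylation by GRKs, through β-arrestin. The transgene present in all groups here is impaired in the latter.

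The array had no probe for miR-150 itself, so the overexpression that defines the DTG group could not be checked on these arrays. The mature strand of Mir150 that RefSeq lists on GRCm38.p6 (chr7:45121798-45121819, plus strand, 22 bases) is shown as the sequence at hand for this microRNA. Capitals mark the seed of this 3p strand only, bases 2 to 8, and the seed of miR-150-5p is not shown.
mmu-miR-150-3p: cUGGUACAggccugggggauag
The levels of neither this strand nor miR-150-5p, which is named only, were measured here.

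Every array held 14236 circRNA probes in 1 spot each and 50 probes for linear RNA in 10 spots each. Levels are given as log2 of the processed spot intensity minus the 75th percentile of that array's circRNA probes, so that 0 is the level of a fairly bright circRNA probe and a difference of 1 is a doubling. Levels of different probes are not comparable. A probe was tested where at least 3 of the 6 arrays marked it as well above background, which held for 12526 circRNA probes and 40 linear RNA probes. Of the 44 linear RNA probes with a gene symbol, 35 were tested. The array paired no circRNA probe with a gene or circRNA name, and such probes are given by number. None of the cardiomyocyte, fibroblast, endothelial, smooth muscle, leukocyte, erythrocyte, adipocyte or hepatocyte markers that were listed had a linear RNA probe, so the tissue label could not be checked against them. In tissue RNA, fewer cells of a type and less RNA per cell cannot be told apart.

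The groups lay on different slides, and 1 array stood apart from its group. The 3 DTG ISO arrays were on slide 1 and the 3 TG ISO arrays on slide 2, so slide and genotype cannot be told apart within this comparison. The 75th percentile was 79.9, 105 and 104 intensity units on the TG ISO arrays and 140, 127 and 155 on the DTG ISO arrays, 1.47 times as high in DTG ISO and without overlap (exact permutation test, two-sided, p = 0.1, the smallest that 3 against 3 arrays allow). On these arrays, 86.3% to 88.6% of circRNA probes stood well above background. Over the tested circRNA probes, Spearman's rho between DTG ISO arrays was 0.985 to 0.987. TG ISO replicate 3 correlated with the DTG ISO arrays at 0.961, 0.969 and 0.963, but with TG ISO replicates 1 and 2 at only 0.891 and 0.920. The median SD of a circRNA probe within a group was 0.39 in TG ISO and 0.18 in DTG ISO, each over 3 arrays. It was 0.27 in TG ISO without replicate 3, an SD over 2 arrays that is not directly comparable with the others. Of the 3 TG ISO arrays, replicate 3 was the nearest to the DTG ISO mean for 63.4% of the tested circRNA probes. It was kept in the TG ISO group, the only source for that assignment being its label. Whether the array is as labelled could not be settled from these data. Counts and the values it moved most are also given without it. This array was singled out for its likeness to the DTG ISO arrays, so lower p-values without it are no separate evidence.

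**Figure D1:**
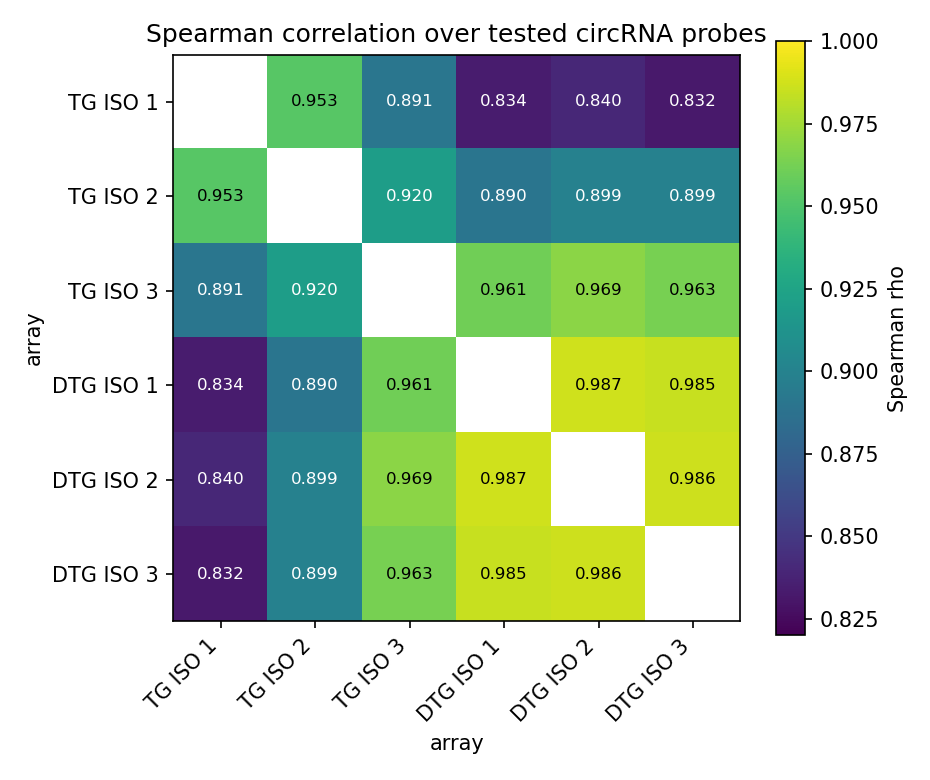
Spearman's rho between each pair of the 6 ISO arrays over the tested circRNA probes, with the array on both axes and colour giving rho. TG ISO replicate 3 has rho of 0.961 to 0.969 with the DTG ISO arrays and of 0.891 and 0.920 with the other TG ISO arrays.

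Of the circRNA probes, 491 (3.92%) were higher and 1686 (13.5%) were lower in DTG ISO than in TG ISO at an adjusted p below 0.05 (limma, Benjamini-Hochberg over all 12566 probes tested, lowest adjusted p = 0.0025). Thus falls outnumbered rises among the calls. The median log2 difference was 1.13 over the probes called higher and -1.19 over those called lower, and every called probe differed by at least 0.69. Over all tested circRNA probes the median difference was -0.08, with the central part of the distribution, from the 5th to the 95th percentile, between -1.39 and 1.09. With the wider limit of at least 1.5-fold and an unadjusted p below 0.05, 1750 probes (14%) were higher and 3009 (24%) lower, and 744 and 1616 of them were beyond 2-fold. All 3 DTG ISO arrays lay above all 3 TG ISO arrays for 2206 circRNA probes (17.6%) and below them for 3468 (27.7%). At the edge of detection, 39 of all 14236 circRNA probes were well above background on all 3 DTG ISO arrays and on no TG ISO array. The reverse held for 79 of the 14236. Such probes met the limit for testing only through the group where they were high.

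**Figure D2:**
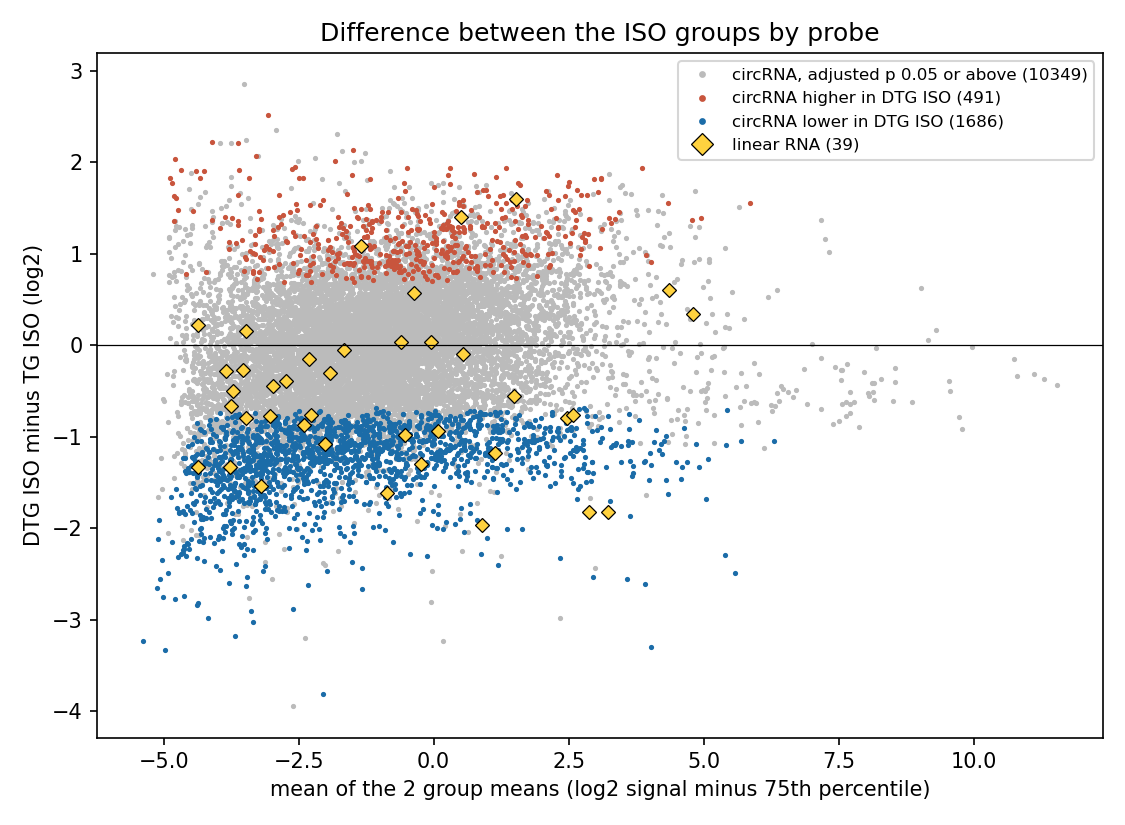
The DTG ISO minus TG ISO difference (log2, vertical axis) of each tested probe against the mean of the 2 group means (log2 signal minus the array's 75th percentile, horizontal axis). Coloured points are the 491 circRNA probes called higher and the 1686 called lower, grey points are circRNA probes not called, and diamonds are 39 of the 40 linear RNA probes.

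The number of calls depended on single arrays. Without TG ISO replicate 3, the array that resembled the DTG ISO arrays, 2616 circRNA probes were higher and 3783 lower at the same limit. In contrast, 0 circRNA probes passed without TG ISO replicate 1, 0 without TG ISO replicate 2 and 0 without DTG ISO replicate 1, while 2 passed without DTG ISO replicate 2 and 2 without DTG ISO replicate 3 (limma, lowest adjusted p between 0.036 and 0.082). In these fits 3386 to 3846 circRNA probes had an unadjusted p below 0.05, against 5087 in the fit to all 6 arrays. With all 12 arrays in 1 limma fit, 0 probes passed the adjusted limit (lowest adjusted p = 0.15) although 3343 circRNA probes had an unadjusted p below 0.05. In that fit the vehicle arrays entered the estimate of spread, and a tested circRNA probe had a median SD of 0.67 in TG Veh and 0.24 in DTG Veh. The methods' t-test with Benjamini-Hochberg adjustment gave 3 higher and 4 lower, and age as a term gave 0 (lowest adjusted p = 0.23, 1595 circRNA probes with an unadjusted p below 0.05). The 2177 called probes were chosen by this difference, so that their direction in other fits to the same arrays is no separate evidence. It turned in part of them, with 2053 of 2177 keeping it with normexp and 2077 of 2173 with slide as a term in the 12 arrays.

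**Figure D3:**
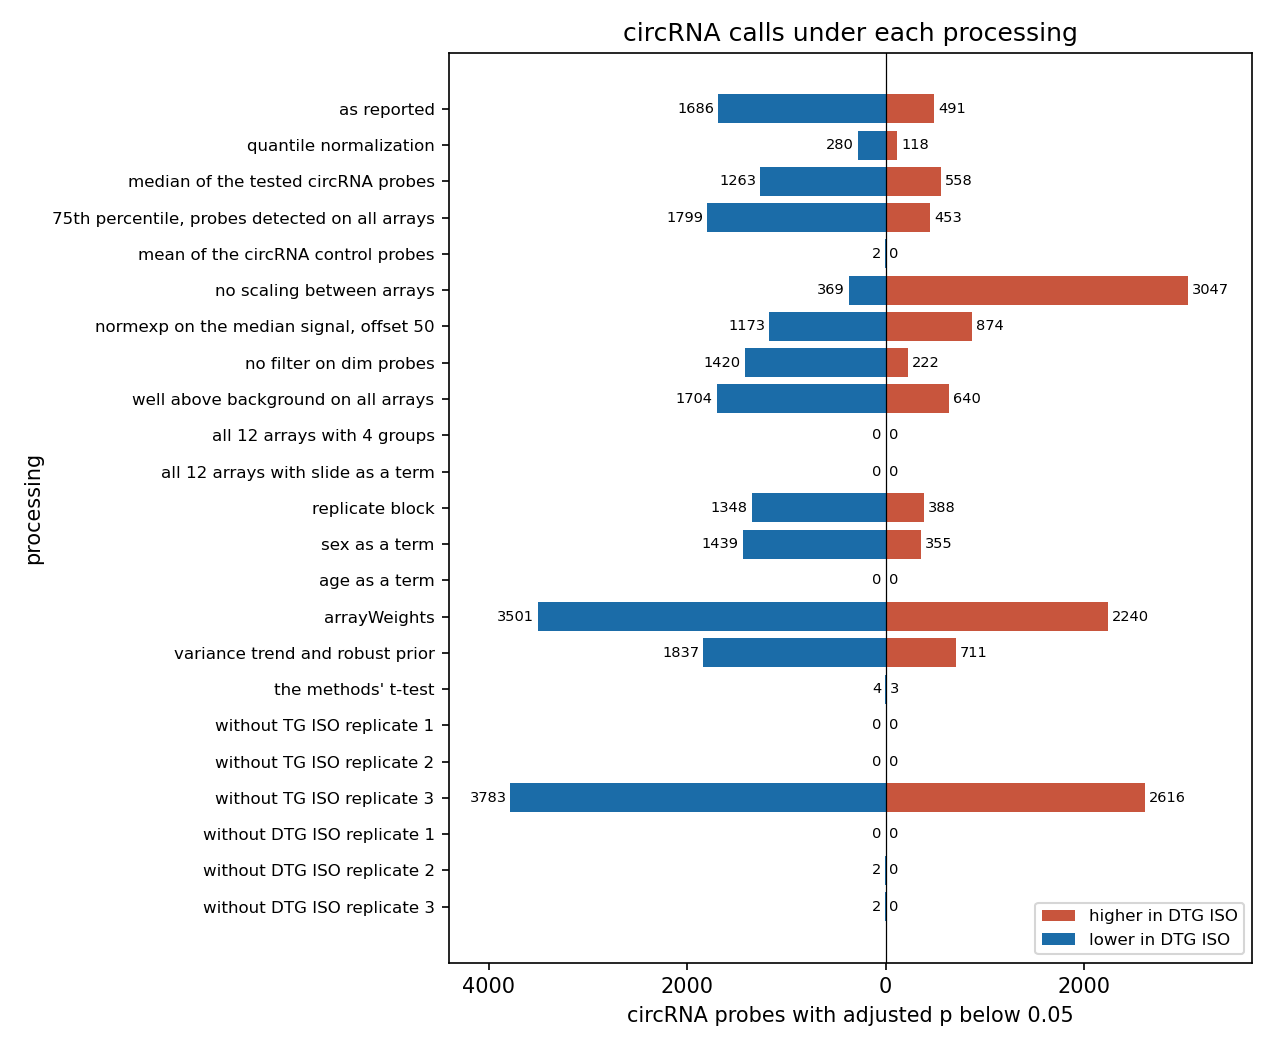
Number of circRNA probes with an adjusted p below 0.05 that were higher (right bars) or lower (left bars) in DTG ISO, for each way of processing or leaving out an array (rows). Counts run from 0 on both sides in 6 of the settings to 2616 higher and 3783 lower without TG ISO replicate 3.

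The split between rises and falls also depended on how the arrays were put on 1 scale. With no scaling between arrays, 3047 circRNA probes were higher and 369 lower, and the median difference of all circRNA probes was 0.47. A normexp background correction gave 874 higher and 1173 lower with a median of -0.39. Quantile normalization left 118 higher and 280 lower, and scaling to the 14 circRNA control probes left 0 higher and 2 lower with a median of 0.11. At the 1.5-fold limit the split was 1750 and 3009 as reported, 2189 and 2292 after quantile normalization, 2438 and 1755 with the control probes, 4862 and 884 with no scaling and 1212 and 3818 with normexp. Rises and falls are accordingly stated relative to the 75th percentile of each array.

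The dimmest circRNA probes held the largest share of falls. Divided into 4 bins of equal size by the mean over the 6 arrays, 20.8% of the dimmest bin (652 of 3132) were called lower and 2.52% higher, with a median difference of -0.42. In the next bins, 11.6%, 9.61% and 11.8% were called lower and 3.03%, 3.86% and 6.26% higher, and the median difference was -0.09, 0.02 and 0.14. In each bin the median SD was larger in TG ISO (0.35 to 0.46) than in DTG ISO (0.15 to 0.26). Of the 12526 tested circRNA probes, 11376 were well above background on all 6 arrays, as were 1862 of the 2177 called. A dim probe could meet the limit for testing through 1 group alone. The part of this in the falls of the dimmest bin was not tested. For comparison, the 15 negative control probes, which are designed to match no transcript, were all lower in DTG ISO on this scale, by a median of 0.56, while before scaling their median difference was -0.0032. The 3 above background on all 6 arrays differed before scaling by -1.06, -0.53 and -0.24. MM9NEGATIVE008 and MM9NEGATIVE014, above background on some arrays, differed by -1.90 and -1.13. The others, above background on no ISO array, differed by -0.18 to 0.08.

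Among circRNA probes well above background on all 6 arrays, with groups that did not overlap, 2 rises and 2 falls past the adjusted limit had the greatest size. ASCRP4009888, the first of the rises, measured -3.69, -2.43 and -1.55 on the TG ISO arrays and -0.24, -0.47 and -0.58 on the DTG ISO arrays. The other rise, ASCRP4005449, measured -3.65, -3.14 and -1.72 in TG ISO and -0.92, -0.997 and -0.57 in DTG ISO. In both, TG ISO replicate 3 was the TG ISO array nearest to the DTG ISO arrays, and the log2 differences were 2.13 ± 0.47 (SE, limma adjusted p = 0.032) and 2.01 ± 0.45 (adjusted p = 0.033). With normexp both calls were lost, at differences of 0.47 (adjusted p = 0.22) and 0.33 (adjusted p = 0.39). ASCRP4003122 fell from 0.02, 0.28 and -0.73 in TG ISO to -4.10, -4.03 and -3.72 in DTG ISO, a difference of -3.81 ± 0.29 (adjusted p = 0.0049). ASCRP4001750 fell from 6.32, 6.22 and 4.45 to 2.34, 2.26 and 2.51, a difference of -3.29 ± 0.46 (adjusted p = 0.029). With slide as a term in the 12 arrays the fall of ASCRP4003122 was -1.08 and that of ASCRP4001750 -3.87 (each adjusted p = 1.00), and with normexp they were -1.63 and -2.62. Without TG ISO replicate 3 the 4 differences were 2.63, 2.57, -4.10 and -3.90, and all passed (adjusted p of 0.0011 or below). Without TG ISO replicate 1 they were 1.56, 1.60, -3.73 and -2.97, and none passed.

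These 4 probes were not alike on the vehicle arrays. ASCRP4003122 measured -2.40, -1.33 and 3.62 in TG Veh and -1.51, -1.73 and -4.35 in DTG Veh, of which the lowest was DTG Veh replicate 3, the vehicle array on slide 1. ASCRP4001750 ranged over the vehicle arrays from 0.29 in TG Veh replicate 3 to 5.42 in TG Veh replicate 1, and both rises lay between -2.86 and -0.14. None of the 4 passed the adjusted limit between TG Veh and DTG Veh (limma adjusted p of 1.00 for each).

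Linear RNA probes report the linear RNA that RNase R left, and 14 of the 40 (35%) fell in DTG ISO at the adjusted limit while 0 rose. The background over circRNA probes was 13.5% lower and 3.92% higher in the same fit. The median log2 difference of the linear RNA probes was -0.61, 30 of 40 were below 0, and for 20 all DTG ISO arrays lay below all TG ISO arrays. Of the 12526 tested circRNA probes, 6749 were below 0, and 27.7% were separated downward in the same way. Their 10 spots on an array differed by an SD of at most 0.51 on the log2 scale for the genes that fell. This balance depended on the scaling, since without scaling 3 linear RNA probes passed upward and 4 downward, with normexp 3 and 3, and with each array centred on the median of the linear RNA probes 2 and 1. The linear RNA calls numbered 24 without TG ISO replicate 3 (4 higher, 20 lower) and 0 when any of the other 5 arrays was left out.

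Among transcription factors, Lhx1 fell, while Ppara, described below, was higher in DTG ISO without passing the adjusted limit. Lhx1, a LIM homeodomain factor of kidney and neural development, measured 2.36, 2.67 and 0.63 in TG ISO and -0.11, -0.03 and -0.10 in DTG ISO. The difference was -1.97 ± 0.48 (SE, limma adjusted p = 0.037), and TG ISO replicate 3 lay closest to the DTG ISO arrays. E2f1, a cell-cycle factor, did not pass (difference -0.67 ± 0.22, adjusted p = 0.065) although its groups did not overlap.

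The falls also included membrane proteins and receptors. Lhfp, a tetraspan membrane protein of the lipoma HMGIC fusion partner family, measured 4.85, 3.60 and 2.92 in TG ISO and 2.68, 1.75 and 1.48 in DTG ISO (difference -1.82 ± 0.50, adjusted p = 0.045). With age as a term Lhfp differed by -0.69 (adjusted p = 0.50). The odorant receptors Olfr1307 and Olfr166, which belong to the olfactory epithelium, both fell. Olfr1307 measured 0.67, 0.28 and 0.29 against -0.87, -0.88 and -0.91 (difference -1.30 ± 0.21, adjusted p = 0.029). Olfr166 measured 1.99, 1.76 and 1.43 against 0.47, 0.70 and 0.46 (difference -1.18 ± 0.23, adjusted p = 0.031). In these receptors TG ISO replicate 3 lay with the other TG ISO arrays. Tm9sf1, of the transmembrane 9 superfamily, measured -1.29, -1.67 and -1.45 against -2.71, -2.38 and -2.57 (difference -1.08 ± 0.22, adjusted p = 0.031). Bambi, a decoy receptor that dampens TGF-β signaling, measured -3.57, -3.97 and -3.53 in TG ISO and was not well above background on any DTG ISO array, where its values were -4.89, -4.78 and -5.40. Set against the lowest signal well above background on each DTG ISO array, or its own value where higher, it was 2.11-fold lower in DTG ISO. That bound was not tested. The fitted difference, which used the DTG ISO values below that mark, was -1.33 ± 0.25 (limma adjusted p = 0.030). Bambi met the 3-array limit for testing through the TG ISO arrays alone, so its call is no separate evidence.

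The remaining falls with a symbol were mostly enzymes. Duox1, a dual oxidase that produces hydrogen peroxide, measured 0.27, -0.16 and -0.28 in TG ISO and -1.74, -1.58 and -1.71 in DTG ISO (difference -1.62 ± 0.23, adjusted p = 0.029). Its difference was the steadiest relative to its error among the linear RNA genes that fell. Hyal3, a member of the hyaluronidase family, measured -2.56, -3.35 and -3.38 against -4.64, -4.33 and -4.31 (difference -1.33 ± 0.28, adjusted p = 0.031). Gamt, which catalyses the last step of creatine synthesis, measured 0.90, 0.61 and 0.11 against -0.39, -0.38 and -0.41 (difference -0.93 ± 0.25, adjusted p = 0.043). Alkbh4, a dioxygenase of the AlkB family, and Anxa8, a calcium-dependent phospholipid-binding annexin, fell by 0.76 and 0.87 on the log2 scale (adjusted p = 0.044 and 0.041). Another 2 falls carried no symbol in RefSeq. The probe for transcript X89687 measured -1.94, -2.69 and -2.64 against -3.86, -4.11 and -3.92 (difference -1.54 ± 0.26, adjusted p = 0.029), and the probe for ENSMUST00000062524 measured 0.00, -0.40 and 0.27 against -1.23, -0.98 and -0.86 (difference -0.98 ± 0.24, adjusted p = 0.038).

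The sizes of these falls changed with the processing. Without TG ISO replicate 3, Bambi was not tested and the other named falls passed, with differences from -2.60 for Lhx1 to -0.82 for Alkbh4 and ENSMUST00000062524. With slide as a term in the 12 arrays none passed (each adjusted p = 1.00). Lhfp then differed by -1.76 and Bambi by -1.28, whereas Duox1 differed by -0.65, Olfr1307 and Olfr166 by -0.34 each, Tm9sf1 by -0.26 and Gamt by -0.36, and Alkbh4 and ENSMUST00000062524 were at 0.0032 and 0.29. With normexp, Duox1, Olfr1307 and X89687 passed, at -0.99, -0.80 and -0.90, and the other named falls did not.

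Metabolic genes of the lists considered were few on this array, and 0 of the 7 measured passed the adjusted limit, against 14 of all 40 linear RNA probes. With 7 genes, 0 calls say little about these pathways. The 3 genes of fatty acid oxidation had differences above 0, with a median of 1.40, while 30 of the 40 linear RNA probes were below 0. Ppara, the nuclear receptor that drives fatty acid oxidation genes, measured 0.03, 0.20 and 1.97 in TG ISO and 2.26, 2.16 and 2.57 in DTG ISO. The difference was 1.60 ± 0.48 (limma adjusted p = 0.052), without overlap. Without TG ISO replicate 3 it was 2.22 (adjusted p = 0.00044). That array was singled out for its likeness to DTG ISO, so the lower p is no separate evidence. Without TG ISO replicate 1 or 2 the difference was 1.25 and 1.34 (adjusted p = 0.15 for each). Acaa2, the thiolase of the last step of mitochondrial β-oxidation, measured -0.96, -1.12 and 1.5 against 1.43, 1.24 and 0.95 (difference 1.40 ± 0.62, adjusted p = 0.13), and TG ISO replicate 3 exceeded all DTG ISO arrays. Without that array the difference was 2.25 (limma adjusted p = 0.00045). Without TG ISO replicate 1 or 2 it was 1.02 and 0.94 (adjusted p = 0.34 for each). Cpt1a, which loads long-chain fatty acids onto carnitine for entry into mitochondria, measured -1.27, -0.48 and -0.17 against 0.34, -0.43 and -0.13 (difference 0.56 ± 0.33, adjusted p = 0.23), with overlapping groups.

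In the antioxidant list, Gsta4, a glutathione transferase that detoxifies lipid peroxidation products, measured -1.53, -3.27 and -0.87 in TG ISO and -0.52, -0.75 and -1.14 in DTG ISO (difference 1.09 ± 0.55, adjusted p = 0.17). Without TG ISO replicate 2, its lowest array, the difference was 0.40 (adjusted p = 0.39), and without TG ISO replicate 3 it was 1.60 and passed (adjusted p = 0.019). Prdx2, a thioredoxin-dependent peroxidase, differed by 0.03 ± 0.25 (adjusted p = 0.93). Gpi1, the glycolytic glucose-6-phosphate isomerase, likewise differed by 0.03 ± 0.27 (adjusted p = 0.93), and for both the groups overlapped. Apoe, the apolipoprotein of remnant lipoproteins, measured 4.91, 4.99 and 2.49 in TG ISO and 2.17, 2.40 and 2.36 in DTG ISO. Its difference of -1.82 ± 0.60 did not pass (limma adjusted p = 0.065). Without TG ISO replicate 1 or 2 it was -1.43 and -1.39 (adjusted p = 0.19 and 0.18). Without TG ISO replicate 3, which lay just above the highest DTG ISO array, it was -2.64 (adjusted p = 0.00030). For Ppara, Acaa2 and Apoe alike, that array thus lay near the DTG ISO arrays, whereas for Duox1 and the odorant receptors it did not.

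The genes that follow did not pass the adjusted limit. Hspb7, a small heat shock protein of heart muscle, measured 4.86, 4.01 and 5.06 in TG ISO and 5.06, 5.22 and 4.64 in DTG ISO (difference 0.34 ± 0.32, adjusted p = 0.44). H2-Q7, a non-classical class I histocompatibility gene with close relatives that may share its probe, differed by 0.60 ± 0.32 (adjusted p = 0.19), and Actb, cytoplasmic actin, by -0.80 ± 0.49 (adjusted p = 0.24). Atg3 and Pex11a, which act in autophagy and peroxisome division, had differences of -0.80 and -0.56 without overlap (limma adjusted p = 0.084 for each). Rps4l, whose probe matches a non-coding RNA record in RefSeq, differed by -0.78 without overlap (adjusted p = 0.052). The differences of Gabrg1, Uhrf1bp1l, Mzb1, Spats1, Rab5a, Gsdmd, Taf1a, Nup50 and Dnajc11 lay between -0.50 and 0.22 with overlapping groups, as did -0.10 and -0.29 for the unnamed transcripts AK004226 and BC057074. The unnamed XM_006525458 differed by -0.76 (adjusted p = 0.081). Mbp, Kcnn2, Chgb, Tyr, Carhsp1, Cav2, Il2, Cep41, Trp53rka and the unnamed AK053689 were well above background on fewer than 3 arrays and were not tested.

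**Figure D4:**
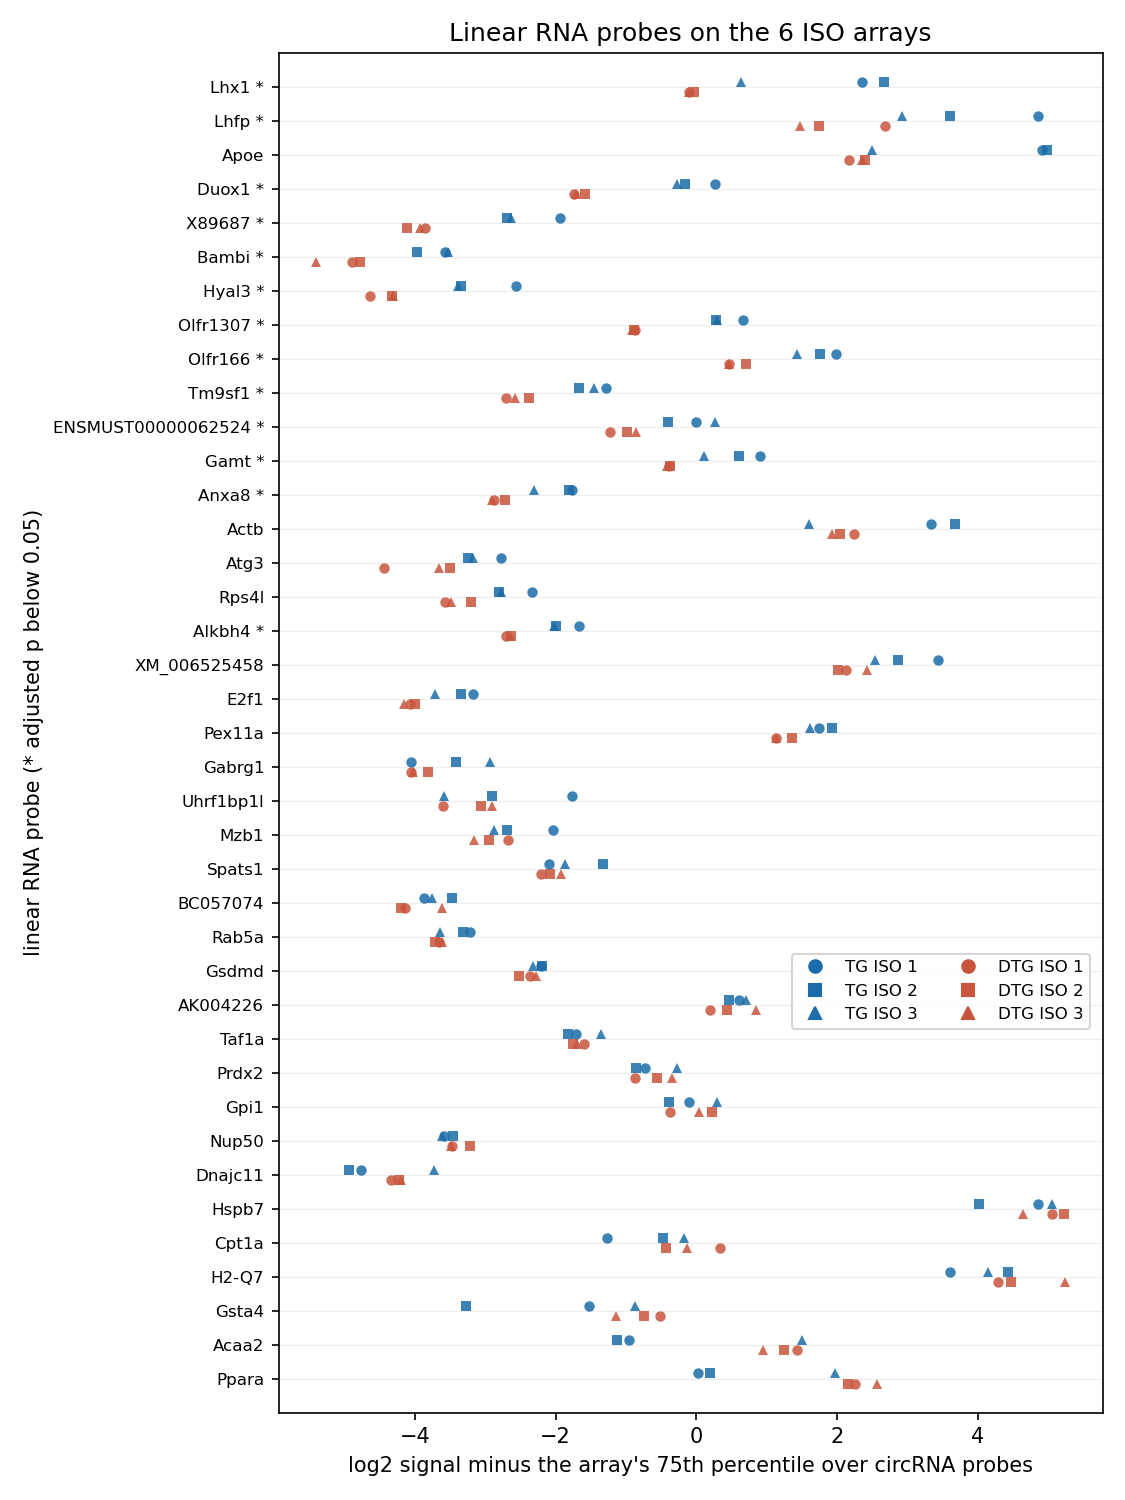
Level of 39 of the 40 tested linear RNA probes on the 6 ISO arrays (horizontal axis, log2 signal minus the array's 75th percentile over circRNA probes), ordered by the difference between the groups, with a star where the adjusted p was below 0.05. Blue symbols are TG ISO, red symbols DTG ISO, and the symbol's shape gives the replicate. TG ISO replicate 3 (triangle) lies by the DTG ISO arrays for Apoe, Acaa2 and Ppara.

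The negative control probes moved with the same arrays as the genes that fell. Of the 15, all were lower on every DTG ISO array than on every TG ISO array, and 3 were well above background on all 6. Their mean was -1.58, -2.26 and -2.28 on the TG ISO arrays and -3.25, -3.09 and -3.29 on the DTG ISO arrays. MM9NEGATIVE015 alone measured -0.67, -2.04 and -1.86 against -3.14, -2.82 and -3.47. Between 26.7% and 27.3% of the negative control spots were marked as well above background in TG ISO and between 20% and 20.7% in DTG ISO. Beside the 3 probes above background on all 6 arrays, only MM9NEGATIVE008 (2 arrays) and MM9NEGATIVE014 (1 array) reached that mark. The gap in spots thus rests on few of the 15 probes. The 14 circRNA control probes had a median difference of -0.21, with 5 lower and 1 higher without overlap. Of the tested circRNA probes, 27.7% were lower and 17.6% higher without overlap. The part of the control signal in the falls of circRNA and linear RNA probes was not tested.

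The levels of the probes that fell, over all 12 arrays, had their highest values on the same arrays as the negative controls. The 1686 circRNA probes called lower had a median level of -0.72, -1.24 and -1.56 on the TG ISO arrays and -2.42, -2.38 and -2.39 on the DTG ISO arrays. It was -1.02, -2.06 and -2.52 in TG Veh and -2.20, -1.71 and -2.51 in DTG Veh. The 14 linear RNA probes had medians of 0.13, -0.28 and -0.09 in TG ISO, -1.49, -1.28 and -1.31 in DTG ISO, 0.60, -0.88 and -1.59 in TG Veh and -1.19, 0.00 and -1.71 in DTG Veh. The 5 arrays on which both sets were highest, all of TG ISO, TG Veh replicate 1 and DTG Veh replicate 2, were also the 5 with 26.7% to 27.3% of the negative control spots above background, against 20% to 21.3% on the other 7. Both sets were chosen for being lower in DTG ISO than in TG ISO. The place of the TG ISO arrays above the DTG ISO arrays was therefore fixed by that choice. Only the vehicle arrays stand apart from it, and a cause of the match was not tested. The 3 negative controls averaged -1.72 on TG Veh replicate 1 and -2.66 on DTG Veh replicate 2, and -4.11 to -3.04 on the other vehicle arrays. The 491 circRNA probes called higher had medians of -1.24, -1.02 and -0.42 in TG ISO, 0.26, 0.18 and 0.17 in DTG ISO, -0.61, -0.10 and -0.14 in TG Veh and -0.01, -0.27 and 0.19 in DTG Veh.

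**Figure D5:**
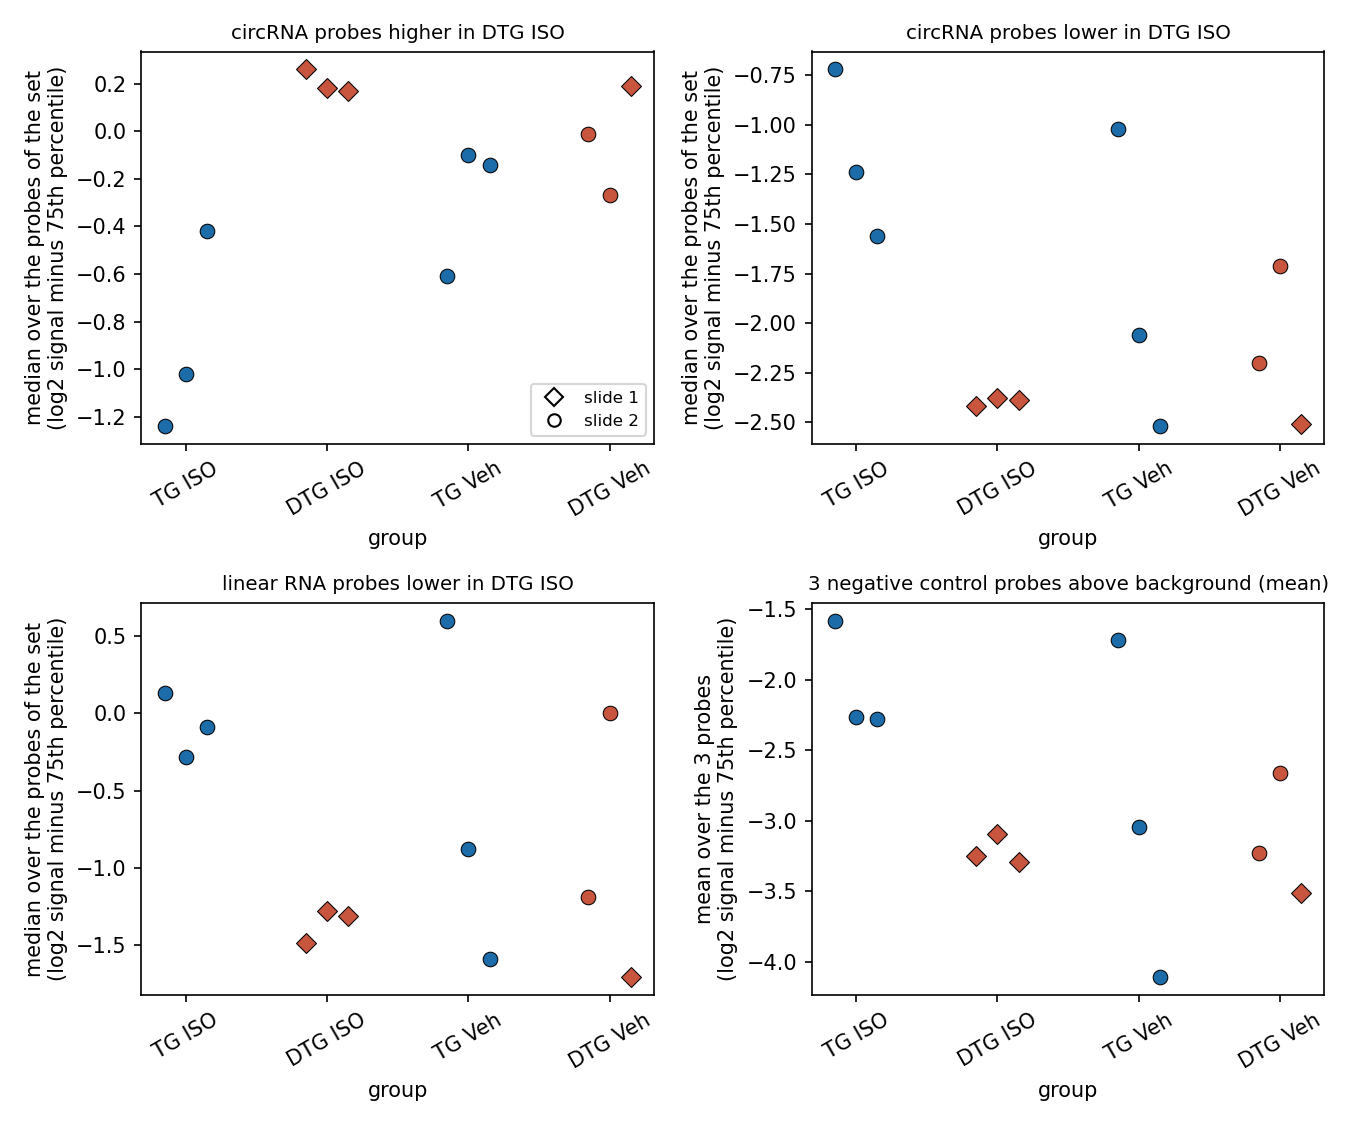
Median level on each of the 12 arrays of the 491 circRNA probes called higher, the 1686 called lower and the 14 linear RNA probes called lower in DTG ISO, and the mean of the 3 negative control probes above background (vertical axes, log2 signal minus the array's 75th percentile; groups on the horizontal axes, diamonds for slide 1 and circles for slide 2). In the panels of the probes called lower, TG Veh replicate 1 and DTG Veh replicate 2 lie with or near the TG ISO arrays and the other vehicle arrays nearer the DTG ISO arrays. In the panel of the negative controls, TG Veh replicate 1 lies with the TG ISO arrays. There DTG Veh replicate 2 (-2.66) lies between the ISO groups and TG Veh replicate 3 (-4.11) below both.

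Slide was examined where a group spanned both. DTG Veh replicate 3 was on slide 1 and DTG Veh replicates 1 and 2 on slide 2. The 1686 circRNA probes called lower in DTG ISO differed between these slides by a median of -0.54 (93.7% below 0), and the 491 called higher by 0.31 (81.5% above 0). Over all tested circRNA probes the median was -0.04, and the slide difference had the sign of the ISO difference in 68.7% of the probes below 0 and 62.8% of those above 0 in the ISO pair. Each of the 14 linear RNA probes that fell was also lower on slide 1 within DTG Veh, by a median of 0.72, while over all 40 tested linear RNA probes the sign was shared by 77.5% and the median was -0.27. With slide as a term in a fit to all 12 arrays, 0 circRNA and 0 linear RNA probes passed the adjusted limit (limma, lowest adjusted p = 1.00), and the 1.5-fold limit was passed upward by 73 and downward by 57 circRNA probes. That fit takes the slide difference from 1 array against 2.

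The same genotype difference without ISO was read from the vehicle pair, which shares no array with the ISO pair. In that pair 1 array stood apart. The 75th percentile was 419 intensity units on TG Veh replicate 3, against 129 and 131 on TG Veh replicates 1 and 2. Between DTG Veh and TG Veh, 0 probes (0%) passed the adjusted limit (limma, lowest adjusted p = 1.00), and 265 of 13035 had an unadjusted p below 0.05. Of the circRNA probes called higher in DTG ISO, 74.9% were above 0 in the vehicle pair with a median of 0.25, and of those called lower 73.3% were below 0 with a median of -0.18. Over all tested circRNA probes, 65% had the same sign in both pairs. Restricted to slide 2, 65.4% of the probes called higher and 48.4% of those called lower kept their sign, with medians of 0.14 and 0.01, against 58.1% of all tested circRNA probes above 0 and 56.6% of those below 0. Of the 14 linear RNA probes, 13 were below 0 in the vehicle pair with a median of -0.35, while 80% of all 40 tested linear RNA probes had the same sign in both pairs, with a median of -0.15. Lhfp had the largest vehicle difference of the named falls (-1.59, unadjusted p = 0.036, adjusted p = 1.00). For Ppara, Acaa2 and Apoe the vehicle pair differed by 0.47, 0.88 and -1.05 (each adjusted p = 1.00). TG Veh replicate 3 was the extreme TG Veh array for these genes and Lhfp. In TG Veh, Lhfp measured 1.24, 2.75 and 4.23, and Apoe 2.52, 2.26 and 4.82. Ppara measured 2.24, 2.27 and -0.43 there, and Acaa2 0.76, 1.84 and -0.29. These vehicle differences thus depended on that array.

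The difference between the pairs of genotypes was tested directly in the 12 arrays. 0 probes (0%) had a different DTG against TG difference with ISO than with vehicle at the adjusted limit (limma, lowest adjusted p = 0.74), and 640 of 13035 had an unadjusted p below 0.05. Among the linear RNA genes that fell, the ISO pair differed from the vehicle pair by -1.54 for Lhx1 (unadjusted p = 0.040) and -0.23 for Lhfp (0.81), each with an adjusted p of 0.74 or above.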

How the data were processed

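Left ventricular RNA was treated with RNase R, labeled with Cy3 and hybridized to Arraystar mouse circRNA arrays by the authors, who deposited spot intensity values written by Agilent Feature Extraction 11.0.1.1, background-corrected and not normalized between arrays. The processed signal was converted to log2 and outlier-flagged spots were removed. Each array's 75th percentile over circRNA probes was subtracted, and spots of a linear RNA probe were averaged. Probes that at least 3 of 6 arrays marked as above background were fitted with limma 3.58.1 (lmFit and eBayes, prior of 4.35 degrees of freedom) in R 4.3.3, and p was adjusted by Benjamini-Hochberg over all probes. The 12-array fits used the same steps. The code was tested on simulated data. Arrays have no read depth, and the number of arrays limits precision.

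Linear RNA probes were named through RefSeq accessions (44 of 50 matched). Genes past the adjusted limit and measured genes of the lists were named, as were the 2 largest circRNA rises and falls past it, without overlap and above background on 6 arrays. The values of 1 linear RNA gene are not reported here. Members and lists were chosen with earlier results of these data known. Replicate numbers did not pair arrays, since deviations of same-numbered arrays correlated at 0.12, -0.02 and -0.03. Figures used matplotlib 3.10.9 in Python 3.11.15.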

Additional observations from a re-analysis of the deposited data

How the results depend on the processing

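Leaving out an array gave 0 to 6399 circRNA calls, 3243 to 6608 at the 1.5-fold limit and 0 to 24 linear RNA calls. As reported, these were 2177, 4759 and 14. In the same order, quantile normalization gave 398, 4481 and 4, the control probes 2, 4193 and 0, no scaling 3416, 5746 and 7, arrayWeights 5741, 6023 and 23, the methods' t-test 7, 3083 and 0, age 0, 1595 and 0, all 12 arrays 0, 3308 and 0, and slide 0, 130 and 0. Linear RNA calls numbered 6 with normexp and 3 with the median of the linear RNA probes, and the 2-fold limit gave 2360 circRNA probes. With replicate number as a block, 1736, 4909 and 12 passed, Ppara with them (adjusted p = 0.042). The causes were not tested. With slide as a term, ENSMUST00000062524 differed by 0.29 and Alkbh4 by 0.0032, against the reported falls. Prdx2 changed sign in 7 and Gpi1 in 4 of 24 alternatives, never past the limit. The difference between the pairs was past the limit for 0 probes in each alternative run, the replicate block included. Normexp on the mean signal was not run, since that column was not in the files, and the median signal was used after the files were seen.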
